A study of Rattus norvegicus with 12 samples.

Results

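The heart's gene program rests on a small set of regulators that are switched on early in the embryo and stay on in the cardiomyocyte. Here 10 of them were followed: the zinc finger factors Gata4 and Gata6, the homeodomain factor Nkx2-5, the T-box factors Tbx5 and Tbx20, the basic helix-loop-helix factors Hand1 and Hand2, the Notch-responsive repressor Hey2, the SRF coactivator myocardin (Myocd) and the muscle histone methyltransferase Smyd1. They were chosen by name, as genes whose symbol is the only one listed for a probe set, and no threshold on a measured value entered the rule. The choice was made with earlier results of these data known. Each had a single probe set, and all 10 were measured, out of 14497 genes that the table names by a single symbol. They also all passed the filter on low values, among 10025 genes tested, with 12-array means between the 62.0th percentile (Hand1) and the 98.9th percentile (Tbx20) of all probe sets.

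The arrays came from ventricular cardiomyocytes of newborn Wistar rats, and all 4 groups shared the plating and the serum-free period that followed. The control cultures were untreated. The other groups received adenovirus carrying mef2Cγ+ (γ+), mef2Cγ- (γ-) or mef2Cγ+23/24 (23/24), with 3 arrays in each of the 4 groups. MEF2C is a MADS-box factor that binds muscle promoters, and splicing includes or skips its γ segment, which is known to repress transcription. The labels do not define 23/24. An empty adenovirus was not analysed here, and the effect of the virus and that of its insert cannot be told apart in a difference from control. The labels call the arrays of a group biological replicates without naming separate isolations, and p-values then measure only the spread between these samples, which may be technical. Mef2c itself and the transgenes were not analysed here.

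These factors work as a network: GATA, T-box and NK homeodomain proteins bind together at cardiac enhancers, often beside MEF2 and SRF, and many of them keep each other's genes active. Myocardin has no DNA site of its own and acts through SRF at CArG boxes, and also through MEF2 in its longer cardiac form. Smyd1 is itself known as a direct target of MEF2C in the embryonic heart. Hey2 marks the ventricular compact wall and represses atrial genes.

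The promoters of 3 genes are shown as examples, Smyd1 and Tbx20 of the fall in the γ+ cultures and Hey2 of the rise. Gata6 rose more than Hey2 against control (0.38 against 0.29 log2) and is not shown, nor is Hand1, which fell. The promoters of Gata6 and Hand1 held no match to the motifs named next. Each is the run of 250 bases before the RefSeq transcription start in the GRCr8 assembly, written 5′ to 3′ along the gene's own strand. Capitals mark matches, on either strand, to the E-box CANNTG, and stretches that match the MEF2 box or the CArG box with at most 1 mismatch.
Smyd1, chr4:104811273-104811522, minus strand: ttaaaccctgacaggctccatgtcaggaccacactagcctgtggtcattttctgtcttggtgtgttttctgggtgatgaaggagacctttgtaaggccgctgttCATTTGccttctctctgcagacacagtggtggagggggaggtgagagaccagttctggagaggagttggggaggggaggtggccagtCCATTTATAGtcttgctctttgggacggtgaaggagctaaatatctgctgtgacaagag
Tbx20, chr8:31534010-31534259, minus strand: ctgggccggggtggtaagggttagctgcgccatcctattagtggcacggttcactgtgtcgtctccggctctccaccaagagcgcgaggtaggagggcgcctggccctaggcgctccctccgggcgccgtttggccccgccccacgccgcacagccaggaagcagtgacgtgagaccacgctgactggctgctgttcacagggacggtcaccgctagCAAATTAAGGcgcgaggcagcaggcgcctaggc
Hey2, chr1:28640850-28641099, plus strand: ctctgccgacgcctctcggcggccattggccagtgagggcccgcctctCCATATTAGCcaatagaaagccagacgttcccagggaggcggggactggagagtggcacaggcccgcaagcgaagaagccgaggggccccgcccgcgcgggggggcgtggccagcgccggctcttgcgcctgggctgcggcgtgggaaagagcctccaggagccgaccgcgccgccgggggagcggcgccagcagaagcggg

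RefSeq promoters were on hand for 8 of the 10 genes, all but Gata4 and Myocd. None of the 8 held an exact MEF2 box or an exact CArG box in this window, against 2.96% and 1.50% of all 33469 promoters. In Smyd1 the same stretch, from 59 to 50 bases before the start, matched both boxes with 1 mismatch on both strands, so the MEF2-like and CArG-like readings overlap there completely. A MEF2 box with 1 mismatch occurred in 26.6% of all promoters and a CArG box with 1 mismatch in 18.7%. Tbx20 held a CArG-like stretch from 33 to 24 bases before the start and Hey2 another from 202 to 193. Smyd1 also held an E-box from 146 to 141 bases before the start, as did 65.5% of all promoters somewhere in the window. Among the 8, a MEF2-like stretch occurred in 4 (Smyd1, Nkx2-5, Tbx5 and Hand2), a CArG-like stretch in 4 (Smyd1, Tbx20, Hey2 and Nkx2-5) and an E-box in 4 (Smyd1, Nkx2-5, Tbx5 and Hand2). Nkx2-5, Tbx5 and Hand2 are the factors not called between γ+ and control, and each held a MEF2-like stretch and an E-box. Among the called factors with a promoter on hand, only Smyd1 held these. The CArG-like stretches lay in called factors and in Nkx2-5. A link between matches and calls was not tested. These matches describe letters and not binding.

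Before the results, 3 properties of the arrays matter. Array medians lay between 5.33 and 5.53 on the log2 scale. The arrays formed 3 sets by exactly equal values: the 6 control and 23/24 arrays, the 3 γ+ arrays and the 3 γ- arrays. Each of the 21 pairs inside a set shared 27 to 111 equal probe set values, while 0 of 45 pairs between sets shared any. Whether the sets were normalized apart is not stated. The 23/24 against control comparison lies inside a set, and for every other comparison set and group cannot be told apart. Replicate 2 of γ+ stood apart, with an SD of its difference from the other γ+ arrays of 0.240 and 0.241, where those 2 differed from each other by 0.116 (log2, over tested genes).

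The core factors differed between groups in the comparisons that include γ+. In γ+ against control, 7 of the 10 were called by limma at an adjusted p under 0.05, beside 64.9% of all genes tested. Smyd1, Myocd, Tbx20, Gata4 and Hand1 were lower (5 of 10, against 38.7% of all genes), and Gata6 and Hey2 were higher (2 of 10, against 26.2%). Nkx2-5, Tbx5 and Hand2 were not called. Arrays of the 2 groups did not overlap for the same 7 factors, beside 66.6% of all genes. Both shares were close to those of all genes, so the number of factors called is no result about them. Their median log2 difference was -0.18, beside -0.07 over all genes. Of all calls, 40.4% were higher, and 51.2% after median centring of the arrays.

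**Figure D1:**
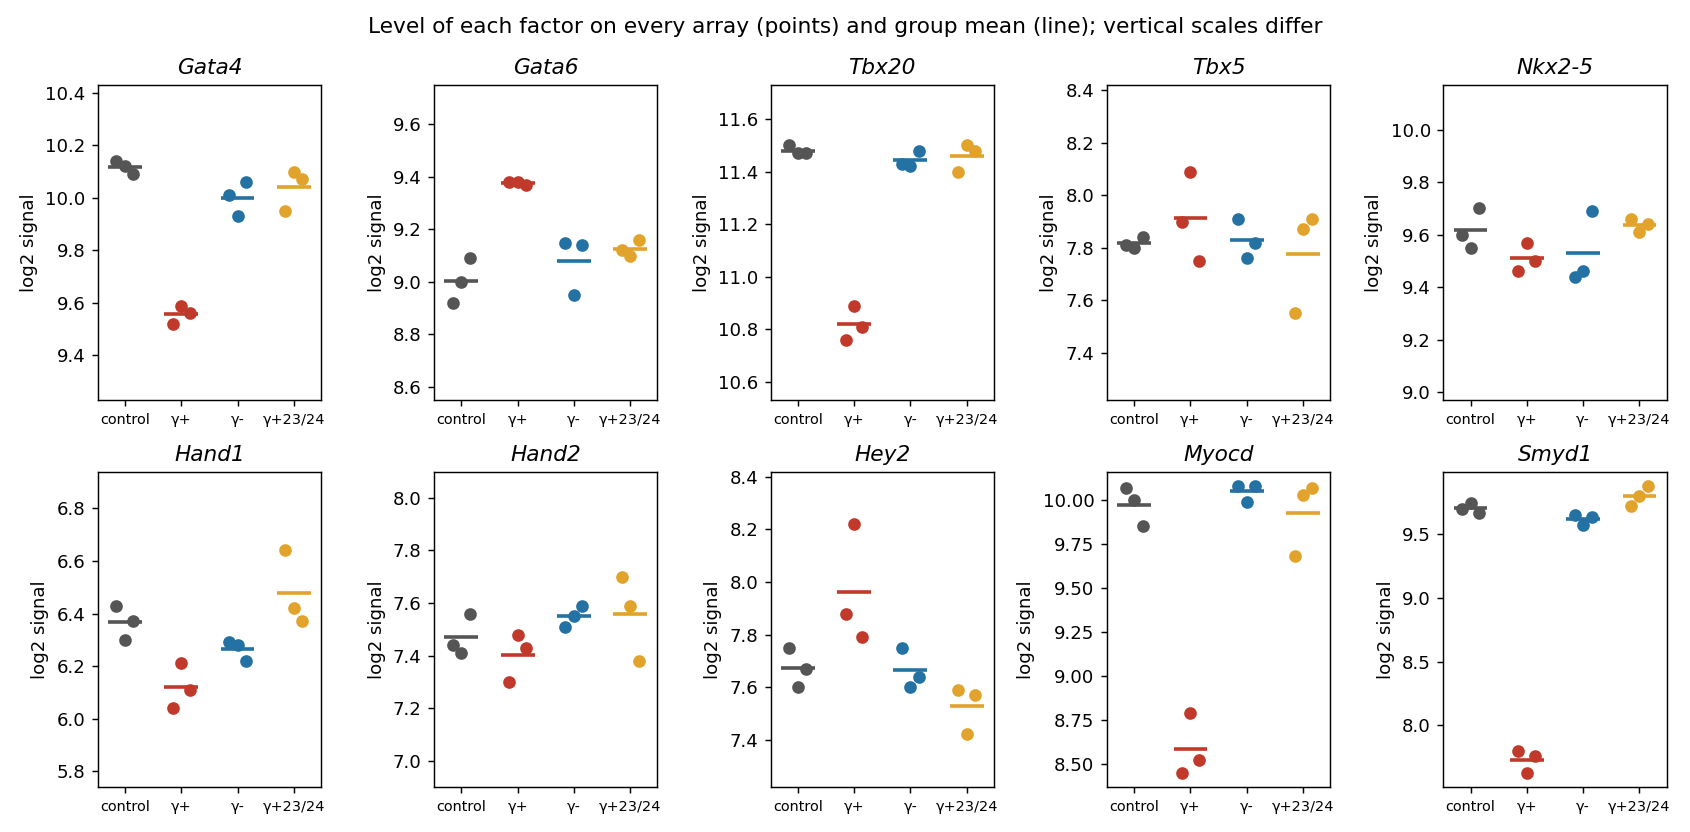
The log2 signal of each of the 10 factors on all 12 arrays, with 3 points per group and a line at the group mean; vertical scales differ between panels. The γ+ arrays lie below every other array for Smyd1, Myocd, Tbx20, Gata4 and Hand1 and above every other array for Gata6 and Hey2, while those of Tbx5 and Hand2 overlap the control and 23/24 arrays.

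Among the cofactors, Smyd1, which methylates histones and muscle proteins and is needed for sarcomere assembly, had the largest difference of the 10. Its log2 level was 9.70, 9.75 and 9.67 on the control arrays, 7.80, 7.63 and 7.76 on the γ+ arrays, 9.65, 9.57 and 9.64 on the γ- arrays, and 9.72, 9.80 and 9.88 on the 23/24 arrays. The γ+ arrays lay far below the 9 others, which spanned a narrow band. The γ+ level was 3.94-fold below control, a log2 difference of -1.98 ± 0.06 (SE, n = 3 per group; limma adjusted p = 1.3e-13), at the 99.1th percentile of absolute differences among all genes. In order of the means, 23/24 (9.80) stood above control (9.71), γ- (9.62) and γ+ (7.73), and the first 3 did not differ from each other at the threshold.

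Myocd, the coactivator that turns SRF on at muscle genes, came next. It stood at 10.07, 10.00 and 9.85 in control, at 8.45, 8.79 and 8.52 in γ+, at 10.08, 9.99 and 10.08 in γ-, and at 9.68, 10.03 and 10.07 in 23/24. All γ+ arrays were below all others, and the remaining groups overlapped. The log2 difference from control was -1.39 ± 0.10 (SE, n = 3 per group), a 2.61-fold lower level with a limma adjusted p of 3.7e-09. Its percentile among absolute differences was 96.2. Both cofactors thus lay further out in the distribution than any of the DNA-binding factors, the next being Tbx20 at 80.0 and Gata4 at 74.0. The other called factors lay near the middle of all genes, Gata6 at 59.7, Hey2 at 48.4 and Hand1 at 42.8.

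The GATA pair moved in opposite directions. Gata4, which drives natriuretic peptide and contractile genes, was at 10.14, 10.12 and 10.09 in control, 9.52, 9.59 and 9.56 in γ+, 10.01, 9.93 and 10.06 in γ-, and 9.95, 10.10 and 10.07 in 23/24. Gata6, which shares its zinc fingers and binding site, was at 8.92, 9.00 and 9.09 in control, 9.38, 9.38 and 9.37 in γ+, 9.15, 8.95 and 9.14 in γ-, and 9.12, 9.10 and 9.16 in 23/24. The γ+ arrays were the lowest of all for Gata4 and the highest of all for Gata6, without overlap. Gata4 fell by 0.56 ± 0.05 log2 against control (1.47-fold, limma adjusted p = 1.2e-07) and Gata6 rose by 0.38 ± 0.06 (1.30-fold, 5.4e-05; SE, n = 3 per group). Both kept their direction and call after median centring and quantile normalization.

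Subtracting one gene from the other within an array removes any offset shared by the whole array, although the size of such a difference between different probe sets has no meaning of its own. The Gata4 minus Gata6 difference was 1.11 ± 0.11 in control, 0.18 ± 0.03 in γ+, 0.92 ± 0.06 in γ- and 0.91 ± 0.08 in 23/24 (SD, n = 3 each). The γ+ arrays were below all others, by 0.94 against control, 0.74 against γ- and 0.73 against 23/24. The γ- and 23/24 arrays also lay below control without overlap, by 0.19 and 0.20, and differed from each other by 0.01. In each of these non-overlapping comparisons the two-sided exact permutation p was 0.10, the smallest that 3 arrays against 3 allow (0.15 with Benjamini-Hochberg adjustment over the 18 pair comparisons made). Lack of overlap was common among single genes: 66.6% in γ+, 33.4% in γ- and 17.9% in 23/24, each against control. For pairs of genes no such share was computed.

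**Figure D2:**
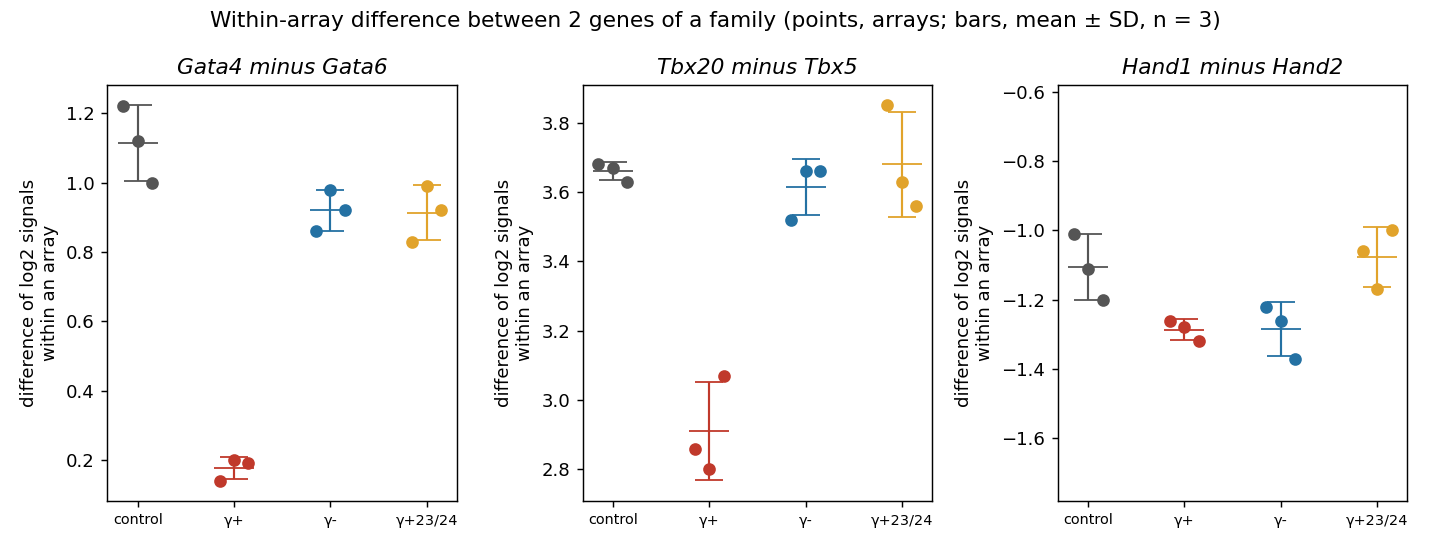
Within-array difference of the log2 signals of 2 genes of a family, for Gata4 minus Gata6, Tbx20 minus Tbx5 and Hand1 minus Hand2, on each array (points) with the mean and SD of 3 arrays (bars). The γ+ arrays stand below every other group in the first 2 panels, while in the Hand panel the γ+ and γ- arrays share 1 range.

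Of the T-box factors, Tbx20, which maintains the contractile and ion transport program of the grown myocardium, was lower in γ+ and Tbx5 was not called. Tbx20 stood at 11.50, 11.47 and 11.47 in control, 10.76, 10.89 and 10.81 in γ+, 11.43, 11.42 and 11.48 in γ-, and 11.40, 11.50 and 11.48 in 23/24. Its log2 difference from control was -0.66 ± 0.05 (SE, n = 3 per group; 1.58-fold lower, limma adjusted p = 3.0e-09), and the γ+ arrays were again below all 9 others. Tbx5, a partner of Gata4 and Nkx2-5 at cardiac enhancers, was at 7.81, 7.80 and 7.84 in control, 7.90, 8.09 and 7.75 in γ+, 7.91, 7.76 and 7.82 in γ-, and 7.55, 7.87 and 7.91 in 23/24. Its groups overlapped, and the 95% interval of the γ+ difference from control ran from -0.10 to 0.30 log2. The Tbx20 minus Tbx5 difference was 2.91 ± 0.14 in γ+ against 3.66 ± 0.03 in control, 3.61 ± 0.08 in γ- and 3.68 ± 0.15 in 23/24 (SD, n = 3 each), with no overlap of γ+ with the other groups (exact permutation p = 0.10 in each).

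Nkx2-5, the earliest cardiac homeodomain factor, showed no called difference in any of the 6 comparisons. Its levels were 9.60, 9.55 and 9.70 in control, 9.46, 9.57 and 9.50 in γ+, 9.44, 9.46 and 9.69 in γ-, and 9.66, 9.61 and 9.64 in 23/24. The γ+ arrays overlapped those of control and of γ- and lay just below those of 23/24. The interval of the γ+ difference from control was -0.25 to 0.03 log2 (estimate -0.11, limma adjusted p = 0.168), so a fall as large as that of Gata4 or Tbx20 lay outside it. Without γ+ replicate 2 the difference from 23/24, -0.13 with an adjusted p of 0.103, became -0.16 and was called by limma (adjusted p = 0.0341; 0.0341 to 0.912 over its 14 alternatives).

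The Hand factors, which pattern the ventricles and dimerize with E proteins, changed little. Hand1 stood at 6.43, 6.30 and 6.37 in control, 6.04, 6.21 and 6.11 in γ+, 6.29, 6.28 and 6.22 in γ-, and 6.64, 6.42 and 6.37 in 23/24. The γ+ arrays were the 3 lowest, and the γ- arrays lay just under control. The γ+ difference from control was -0.25 ± 0.08 log2 (SE, n = 3 per group; limma adjusted p = 0.0137). That call was lost after median centring (-0.16, adjusted p = 0.0975), after quantile normalization (-0.17, 0.0773), without control replicate 1 (-0.22, 0.0560) and without γ+ replicate 1 (-0.21, 0.0587), with adjusted p of 0.00585 to 0.0975 over its 14 alternatives. Against 23/24 the difference was -0.36 ± 0.08 (limma adjusted p = 0.00101) and stayed called in all 14 alternatives.

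Hand2 was at 7.44, 7.41 and 7.56 in control, 7.30, 7.48 and 7.43 in γ+, 7.51, 7.55 and 7.59 in γ-, and 7.70, 7.59 and 7.38 in 23/24. It was called in no comparison, and the 95% interval of the γ+ difference from control was -0.24 to 0.11 log2. Against 23/24 the γ+ difference was -0.15 (adjusted p = 0.106), and limma called it without γ+ replicate 2 (-0.19, 0.0436) or without 23/24 replicate 3 (-0.24, 0.0136; 0.0136 to 0.867 over the 14 alternatives). The Hand1 minus Hand2 difference was -1.29 ± 0.03 in γ+ and -1.28 ± 0.08 in γ-, against -1.10 ± 0.10 in control and -1.08 ± 0.09 in 23/24 (SD, n = 3 each). The γ+ and γ- arrays overlapped in this difference, and both lay below the control and 23/24 arrays (exact permutation p = 0.10 for each, the smallest possible). The control and 23/24 arrays share a set by equal values, so set and group cannot be told apart in this split. Neither Hand1 nor Hand2 was called in γ- against control (limma adjusted p = 0.497 and 0.625).

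Hey2, the Notch effector, was higher in γ+, with uneven arrays. The levels were 7.75, 7.60 and 7.67 in control, 7.88, 8.22 and 7.79 in γ+, 7.75, 7.60 and 7.64 in γ-, and 7.59, 7.42 and 7.57 in 23/24. All γ+ arrays exceeded all others, but replicate 2, the array that stood apart, was well above the other 2. The difference from control was 0.29 ± 0.09 log2 (SE, n = 3 per group; limma adjusted p = 0.0136). Without γ+ replicate 2 it was 0.16 (adjusted p = 0.0559), and without control replicate 2 it was 0.25 (0.0575), neither of them called (0.0023 to 0.0575 over its 14 alternatives). Against γ- and 23/24 the differences were 0.30 and 0.44 (limma adjusted p = 0.0108 and 6.9e-04). Both were called in all 14 alternatives, with 0.17 against γ- and 0.31 against 23/24 as their lowest values. For Gata4, Gata6, Tbx20, Myocd and Smyd1 the γ+ difference from control without γ+ replicate 2 was -0.57, 0.38, -0.69, -1.49 and -1.93, each still called by limma.

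The direct comparisons of γ+ with the other vectors set γ+ beside the form without the γ segment and beside 23/24. Against γ-, 6 of the 10 factors were called (64.2% of all genes). Smyd1 (-1.88 ± 0.06), Myocd (-1.46 ± 0.10), Tbx20 (-0.62 ± 0.05) and Gata4 (-0.44 ± 0.05) were lower, and Gata6 (0.30 ± 0.06) and Hey2 (0.30 ± 0.09) were higher, in log2 with SE. These were 4 of 10 lower against 37.5% of all genes, and 2 of 10 higher against 26.7%. Limma adjusted p ran from 2.7e-13 for Smyd1 to 0.0108 for Hey2. Hand1 missed the threshold at -0.15 (0.129). Arrays did not overlap for 8 of 10, the 6 called with Hand1 and Hand2, beside 67.1% of all genes.

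Against 23/24, 7 of 10 were called, beside 65.8% of all genes. Smyd1 (-2.07 ± 0.06), Myocd (-1.34 ± 0.10), Tbx20 (-0.64 ± 0.05), Gata4 (-0.48 ± 0.05) and Hand1 were lower, and Gata6 (0.25 ± 0.06) and Hey2 (0.44 ± 0.09) higher. That made 5 of 10 lower against 37.9% of all genes and 2 of 10 higher against 28.0%. Median centring shifted the median of all genes by 0.14 log2 in this comparison and raised the share of higher genes among all calls from 42.5% to 58.5%. Arrays did not overlap for 8 of 10, the 7 called with Nkx2-5, beside 67.4% of all genes. The 7 calls stood after that shift, and Tbx5 was added to them (0.27, limma adjusted p = 0.0299; main value 0.13 with 0.222; 0.0299 to 0.842 over its 14 alternatives). The 3 comparisons of γ+ share the γ+ arrays, so their likeness is not independent.

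**Figure D3:**
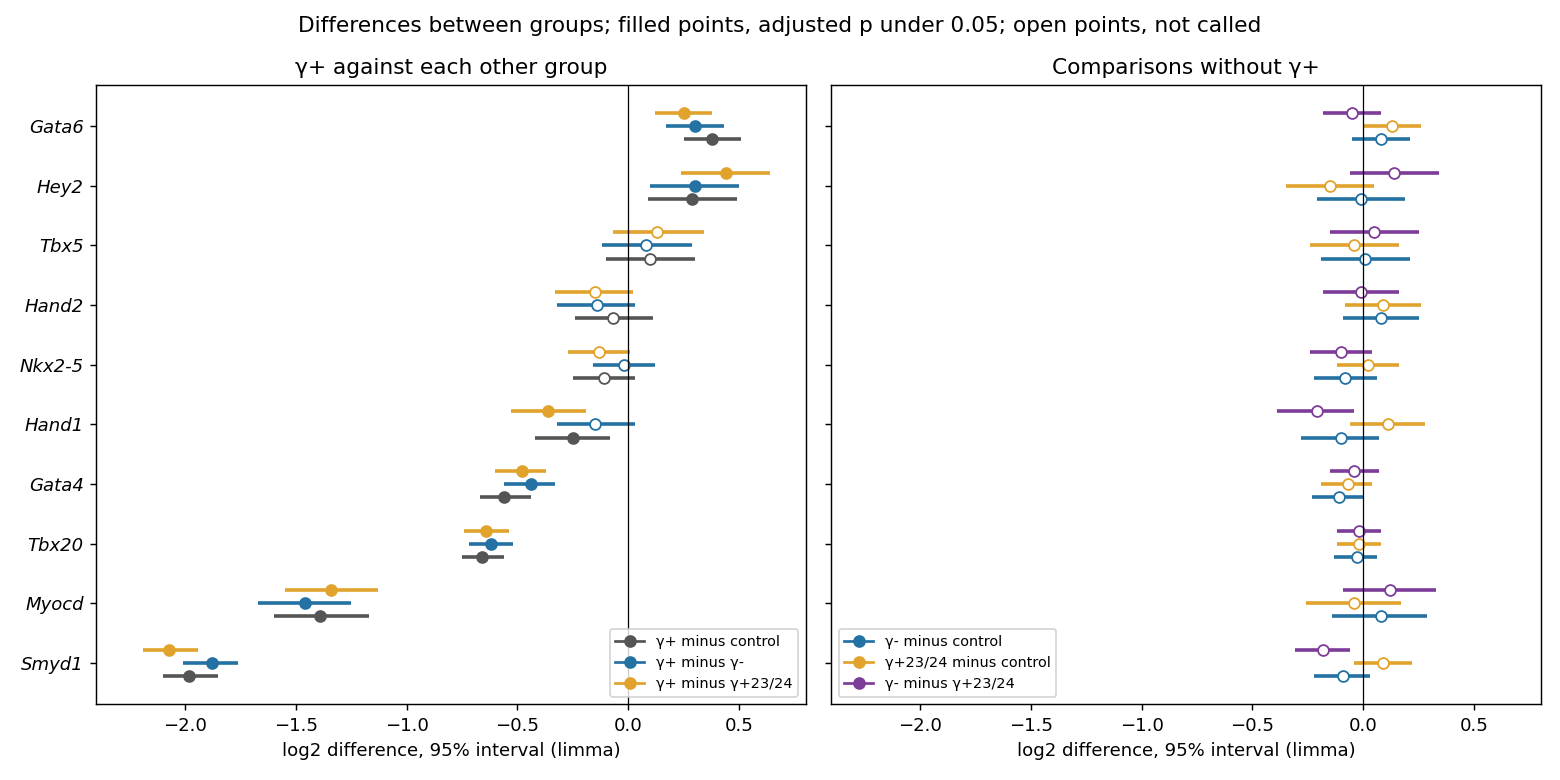
Log2 differences between groups with 95% intervals from limma for the 10 factors, ordered by the γ+ minus control value; filled points have an adjusted p under 0.05. With γ+ (left), Smyd1 reaches from -1.88 to -2.07 and Gata6 from 0.25 to 0.38, whereas no point is filled in the comparisons without γ+ (right). The call of Hand1 against control is lost after median centring and quantile normalization.

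Neither of the other vectors gave a called factor against control. For γ- the number was 0 of 10, beside 6.94% of all genes by limma. At an unadjusted p under 0.05 it was also 0, beside 2288 of 10025 genes. The nearest was Gata4 at -0.11 ± 0.05 (unadjusted p = 0.0515, limma adjusted p = 0.222). Its 95% interval, -0.23 to 0.00, did not reach the γ+ value of -0.56. The arrays of Gata4, Hand1 and Smyd1 were below all control arrays (3 of 10 without overlap, beside 33.4% of all genes in either direction). Smyd1 differed by -0.09, with an interval of -0.22 to 0.03.

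For 23/24 the count was again 0 of 10, with 0% of all genes called by limma and 0 factors at an unadjusted p under 0.05 (899 of 10025 genes). Gata6 came nearest at 0.13 ± 0.06 (unadjusted p = 0.0548, limma adjusted p = 0.567). Gata6 arrays lay above and Hey2 arrays (-0.15) below those of control without overlap, 2 of 10 beside 17.9% of all genes. Smyd1 differed by 0.09 (interval -0.04 to 0.22) and Myocd by -0.04 (-0.26 to 0.17). This is the comparison that lies inside a set of arrays.

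Between γ- and 23/24, 0 of 10 were called by limma, beside 8.10% of all genes. An unadjusted p under 0.05 was reached by 2 of 10, beside 2454 of 10025 genes. Smyd1 was at -0.18 ± 0.06 (unadjusted p = 0.00722, adjusted p = 0.0687) and Hand1 at -0.21 ± 0.08 (0.0179 and 0.114), both with γ- arrays below all 23/24 arrays. With Hey2, whose γ- arrays lay above, 3 of 10 did not overlap, beside 36.2% of all genes. Smyd1 was called after quantile normalization (-0.20, limma adjusted p = 0.0226) and with the 6 compared arrays alone (-0.18, 0.0163), with adjusted p of 0.0163 to 0.336 over its 14 alternatives. Of all calls in this comparison 51.4% were higher, and 77.9% after median centring.

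The partners of the core factors were examined as a list of 26 regulators, of which 21 were tested. The list came from general knowledge of the network, but was chosen with earlier results of these data known. In γ+ against control, 14 were lower and 4 higher by limma, with a median of -0.37. Of all genes 38.7% were called lower and 26.2% higher, with a median of -0.07. The 3 of lowest adjusted p were Ankrd1, Hopx and Gata5. Ankrd1, a cardiac ankyrin repeat cofactor, went from 12.73 ± 0.06 in control to 10.83 ± 0.11 in γ+ (SD, n = 3 each; limma adjusted p = 6.0e-14). Hopx, a homeodomain-only protein that restrains SRF, went from 8.08 ± 0.01 to 6.03 ± 0.06 (9.5e-14), and Gata5, the third cardiac GATA factor, from 8.22 ± 0.06 to 7.54 ± 0.02 (1.3e-08).

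Srf, the DNA-binding partner of Myocd, fell by 0.55 ± 0.09 log2 (limma adjusted p = 3.1e-05). Mef2a and Mef2d differed by -0.52 and -0.62, the latter with an SD of 0.40 among the γ+ arrays. Naca, whose muscle form partners Smyd1, fell by 0.53 ± 0.07 (5.7e-06). The 4 partners that rose, named after their values were seen, were Mef2b (0.94), Tcf3 (0.39), Tbx2 (0.35) and Tcf12 (0.18), of which Tcf3 and Tcf12 encode the E proteins that pair with Hand factors. Mef2b started from a control level of 4.79, next to the filter cutoff of 4.78. Zfpm2, the FOG cofactor of Gata4, was not called (-0.05). Among γ- cultures 1 of 21 partners differed from control, Hopx at -0.31 ± 0.06 (limma adjusted p = 0.00703), beside 6.94% of all genes. In 23/24 cultures 0 of 21 did, where 0% of all genes were called.

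The second list, also chosen with earlier results of these data known, held 22 cardiac genes known as targets of these factors, 21 of them tested. All 21 were lower in γ+ than in control by limma (median -1.20, beside -0.07 over all genes, of which 38.7% were called lower), also after median centring, after quantile normalization and without γ+ replicate 2. Nppb, which encodes brain natriuretic peptide, Ryr2, the calcium release channel, and Tnni3, cardiac troponin I, had the lowest adjusted p, with log2 differences of -2.75 ± 0.06, -1.89 ± 0.05 and -2.16 ± 0.05 (limma adjusted p = 7.4e-15, 1.4e-14 and 2.0e-14). Nppa, the atrial peptide gene that Gata4, Nkx2-5 and Tbx5 bind, fell by 0.52 ± 0.05 (3.5e-08). In γ- cultures 1 target was higher, Myh6 (0.19), and 1 lower, Bmp10 (-0.44), both named after their values were seen. Of all genes 6.94% were called in γ- against control. In 23/24 cultures 0 of 21 targets were called, as were 0% of all genes.

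**Figure D4:**
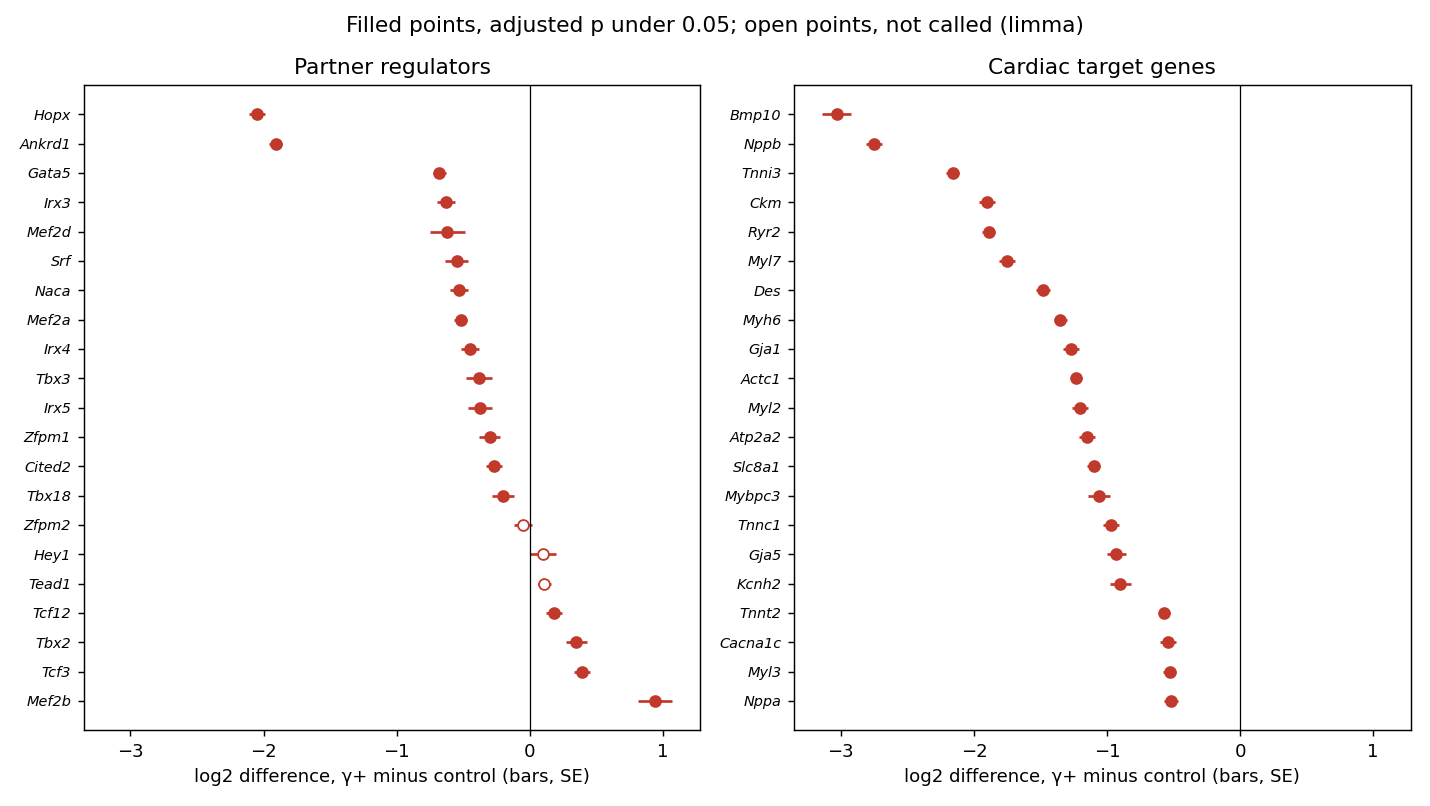
Log2 difference between γ+ and control with its SE for 21 partner regulators (left) and 21 cardiac target genes (right); filled points have a limma adjusted p under 0.05. Partners lie on both sides of 0, from Hopx at -2.05 to Mef2b at 0.94, while the targets run from -3.03 (Bmp10) to -0.52 (Nppa). The γ+ mean of Bmp10, 4.15, lies below the filter cutoff of 4.78.

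Several of the factors are also made by other cells of such cultures: Gata4, Gata6, Hand2 and Tbx20 in fibroblasts, Myocd in smooth muscle and Hey2 in vessels. In whole cultures fewer cells of a type and less RNA per cell cannot be told apart. Cardiomyocyte markers were all detected, with a mean log2 level of 11.87 to 11.94 over the control arrays and 10.67 to 10.71 over the γ+ arrays, and 10 of 10 were called lower in γ+, where 38.7% of all genes were. Smooth muscle markers were lower in 9 of 10 cases (9.49 to 9.51 in control, 8.62 to 8.64 in γ+), and fibroblast markers in 12 of 12 (9.62 to 9.64 and 8.19 to 8.33). Endothelial markers were lower in 9 of 9 cases (6.41 to 6.45 and 5.60 to 5.72), epicardial markers in 6 of 6 (7.13 to 7.23 and 6.06 to 6.13), and macrophage markers in 5 of 7 (6.48 to 6.49 and 6.08 to 6.12). Listed markers without a probe set of their own or under the filter were not tested. The tests covered 10 of 11 smooth muscle, 9 of 10 endothelial, 6 of 8 epicardial and 7 of 10 macrophage markers. The median log2 difference was -1.23 for the cardiomyocyte, -0.72 for the smooth muscle, -1.44 for the fibroblast, -0.76 for the endothelial, -1.04 for the epicardial and -0.33 for the macrophage markers, beside -0.07 over all genes. The lists share genes, so their counts are not separate observations. The cardiomyocyte markers Tnnt2, Tnni3, Myh6, Myl2, Ryr2 and Nppa are also in the target list. Des is both a target and a smooth muscle marker, and Tbx18 both a partner and an epicardial marker. The part of the cell type markers in the falls of the core factors was not tested.

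Likeness of pattern was measured as the root mean square distance between 2 genes over the 12 arrays, each centred on its own mean, and is a description. Among the 10, Gata4 and Tbx20 were the closest pair (0.073 log2), followed by Nkx2-5 and Hand2 (0.101). Nkx2-5 and Hand2 themselves varied by a root mean square of only 0.088 and 0.106, so they mostly share a flat profile. The genes nearest to Smyd1 were Depp1 (0.053), Fbln2 (0.060) and Ankrd1 (0.076), and those nearest to Myocd were Zfp385d (0.088), Spon2 (0.099) and Olfml2b (0.111). Septin9 (0.033), Anxa5 (0.039) and Stard13 (0.042) lay nearest to Gata4, and Prkaa2 (0.040), Dkk3 (0.041) and Med21 (0.042) to Tbx20. Nearest to Gata6 were Med24 (0.056), Ppp4c (0.064) and Rpl36 (0.065), and nearest to Hey2 were Eif5b (0.064), Tpd52l1 (0.068) and Siah2 (0.077). For Hand1 these genes were Mmp24 (0.061), Angel1 (0.068) and Megf6 (0.073). Nkx2-5, Tbx5 and Hand2 varied over all arrays by a root mean square of only 0.088, 0.122 and 0.106, so their nearest genes, Sgsm3 (0.049), Ranbp10 (0.064) and Foxj1 (0.052), mostly share a flat profile.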

How the data were processed

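The deposited table, by the authors, is taken here as log2 signals of Affymetrix expression arrays hybridised with total RNA from 12 samples. Per the submitters' processing notes MAS5 was used, with no version; log base, background correction and normalization are not stated. Per the labels, cells spent 44 h in plating medium, then 24 h serum-free, and labelling started from 2 µg of RNA. The number of arrays limits the precision.

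Of 28826 probe sets, 15209 had 1 gene symbol, 306 several and 13311 none; 15178 were matched to RefSeq's GRCr8 table by Entrez identifier. Probe sets with a 12-array mean above the 40th percentile (log2 4.78) were kept, 17295 in all, and the brightest stood for each gene. limma 3.58.1 in R 4.3.3 (lmFit, eBayes with an intensity trend) fitted 4 group means over 12 arrays, with 8 residual degrees of freedom. Benjamini-Hochberg adjustment covered the 10025 genes within each of 6 comparisons, with calls at an adjusted p under 0.05. The fit was tested on simulated data, with 50 genes changed at each size in γ+ against control. Of changes of 0.25 log2 22% were called, of 0.5 80%, and of 1 and 2 100%, with 7 false calls among 158. Far fewer genes changed there than were called in the real γ+ comparison, so these shares need not hold for the data.

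The 10 factors and all lists were chosen with earlier results of these data known. By rule the text names these 10, the 3 genes nearest to each (shown for 7, and the first for the 3 that vary least), passing over placeholder symbols, and from the partner and target lists the 3 of lowest adjusted p with Nppa, Nppb, Srf, Mef2a and Mef2d; Naca and Zfpm2 were added after their values were seen. Marker lists are given by counts, levels and medians. Alternatives were median centring, quantile normalization, dropping the filter or raising it to the 60th percentile, averaging probe sets, fitting without the trend, blocking on replicate number, fitting each pair of groups by itself, and leaving out each array. The list counts under both scalings and without γ+ replicate 2 were added after seeing the data.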

Additional observations from a re-analysis of the deposited data

How the results depend on the processing

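The 10 factors gave 840 values when the 6 comparisons were refitted under 14 alternatives each. Of these, 799 kept their direction and their side of the threshold, 6 lost a call, 6 gained one and 29 changed sign, 0 of the last with a call on either side. The calls lost and gained stand with the genes above. The number of factors higher in γ+ than in control was 1 to 2 when single arrays were left out (1 without control replicate 2 or γ+ replicate 2). The number lower in γ- than in 23/24 was 1 after quantile normalization and 1 with the 6 compared arrays alone. Median centring turned the sign of Hand2 in γ+ against control (0.022), of Hey2 in γ- against control (0.004), of Nkx2-5 in 23/24 against control (-0.029) and in γ+ against γ- (0.048) and 23/24 (0.010), and, in γ- against 23/24, of Gata4 (0.025), Gata6 (0.017), Tbx20 (0.048) and Hand2 (0.054). Quantile normalization turned Hey2 in γ- against control (0.003) and Nkx2-5 in γ+ against γ- (0.063). Leaving out single arrays turned further uncalled values. In γ- against control these were Hey2 (-0.056 to 0.027) and Tbx5 (-0.028 to 0.048). In 23/24 against control they were Myocd (-0.118 to 0.079), Nkx2-5 (-0.015 to 0.060), Tbx5 (-0.105 to 0.075) and Tbx20 (-0.037 to 0.011), and in γ+ against γ- Nkx2-5 (-0.069 to 0.056) and Tbx5 (-0.005 to 0.168). In γ- against 23/24 they were Hand2 (-0.100 to 0.063), Gata6 (-0.083 to 0.019), Tbx5 (-0.063 to 0.117), Myocd (-0.003 to 0.194) and Tbx20 (-0.045 to 0.003). The cause was not tested.

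Replicate numbers did not pair the arrays: same-numbered arrays deviated from their group means with correlations of -0.22 to 0.12, and at most 2 of 6 arrays in a comparison correlated best with their own number. With replicate number as a block, the calls of γ+ against control were 5 lower and 2 higher, against γ- 4 and 2, and against 23/24 5 and 2, with 0 in the other comparisons. Of all 10025 genes, the block gave 3825 lower and 2576 higher, 3702 and 2624, and 3723 and 2759 in the same order. It gave 287 lower and 227 higher for γ- against control, 0 and 0 for 23/24 against control, and 308 and 320 for γ- against 23/24.

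Over all genes, the calls of γ- against control (307 higher, 389 lower) became 208 lower after median centring, 565 and 798 without a filter, 196 and 229 at the 60th percentile, 592 and 781 with 6 arrays alone, and 110 to 154 and 134 to 189 without single arrays. Those of γ- against 23/24 (417 and 395) became 698 and 198, 655 and 986, 165 lower, and 983 and 777 in the same order, and 125 to 293 and 138 to 236 without single arrays. For 23/24 against control, 1 gene was called after quantile normalization and 1 without control replicate 2.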
